A study of Mus musculus with 10 samples.

Results

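Wnt signalling was followed through 9 genes that the pathway is known to switch on, Axin2, Lef1, Rnf43, Znrf3, Nkd1, Apcdd1, Tnfrsf19, Sp5 and Lgr5, in RNA-seq of mouse telencephalon. The genes were chosen by name as known feedback regulators and targets of the pathway, with earlier results of these data known. All 9 of the 9 listed symbols had a row among the 14796 named genes of the deposited table. The telencephalon was taken at embryonic day 12 from embryos with altered Polr1a, the gene for the catalytic subunit of the polymerase that makes ribosomal RNA. The first number in the sample titles splits them into a null set, 2 wild types and 2 null embryos, and a missense set, 3 wild types and 3 embryos with the allele p.C1559F. The 10 samples carry no other label that separates them: the labels do not say whether the alleles were heterozygous or homozygous, which litters the embryos came from, or what the title numbers stand for.

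When a Wnt ligand binds a Frizzled receptor, beta-catenin escapes destruction, enters the nucleus and joins TCF/LEF factors on target genes. Several targets encode brakes on the pathway itself, so their mRNA is widely read as a sign of pathway activity and at the same time limits it. In the embryonic telencephalon the strongest Wnt source is the cortical hem, a strip at the dorsal midline, and the response is graded from there across the cortex.

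In the null set, 5 of the 9 genes lay higher in both null samples than in both wild types, as 22.9% of all genes did: Axin2, Apcdd1, Lef1, Sp5 and Tnfrsf19. Their differences from wild type ran from 1.39-fold for Lef1 to 1.64-fold for Sp5. In the missense set the same 5 genes overlapped with wild type, while Rnf43 and Nkd1 lay higher in all 3 missense samples than in all 3 wild types, as 6.02% of all genes did, Rnf43 by 6.15-fold. No member passed an adjusted p of 0.05 in either comparison. All changes below are differences of mean log2 level between a mutant group and the wild types of its own set, tested with limma over all 14796 genes. In bulk tissue, a change in the number of cells that express a gene and a change in RNA per cell cannot be told apart.

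**Figure D1:**
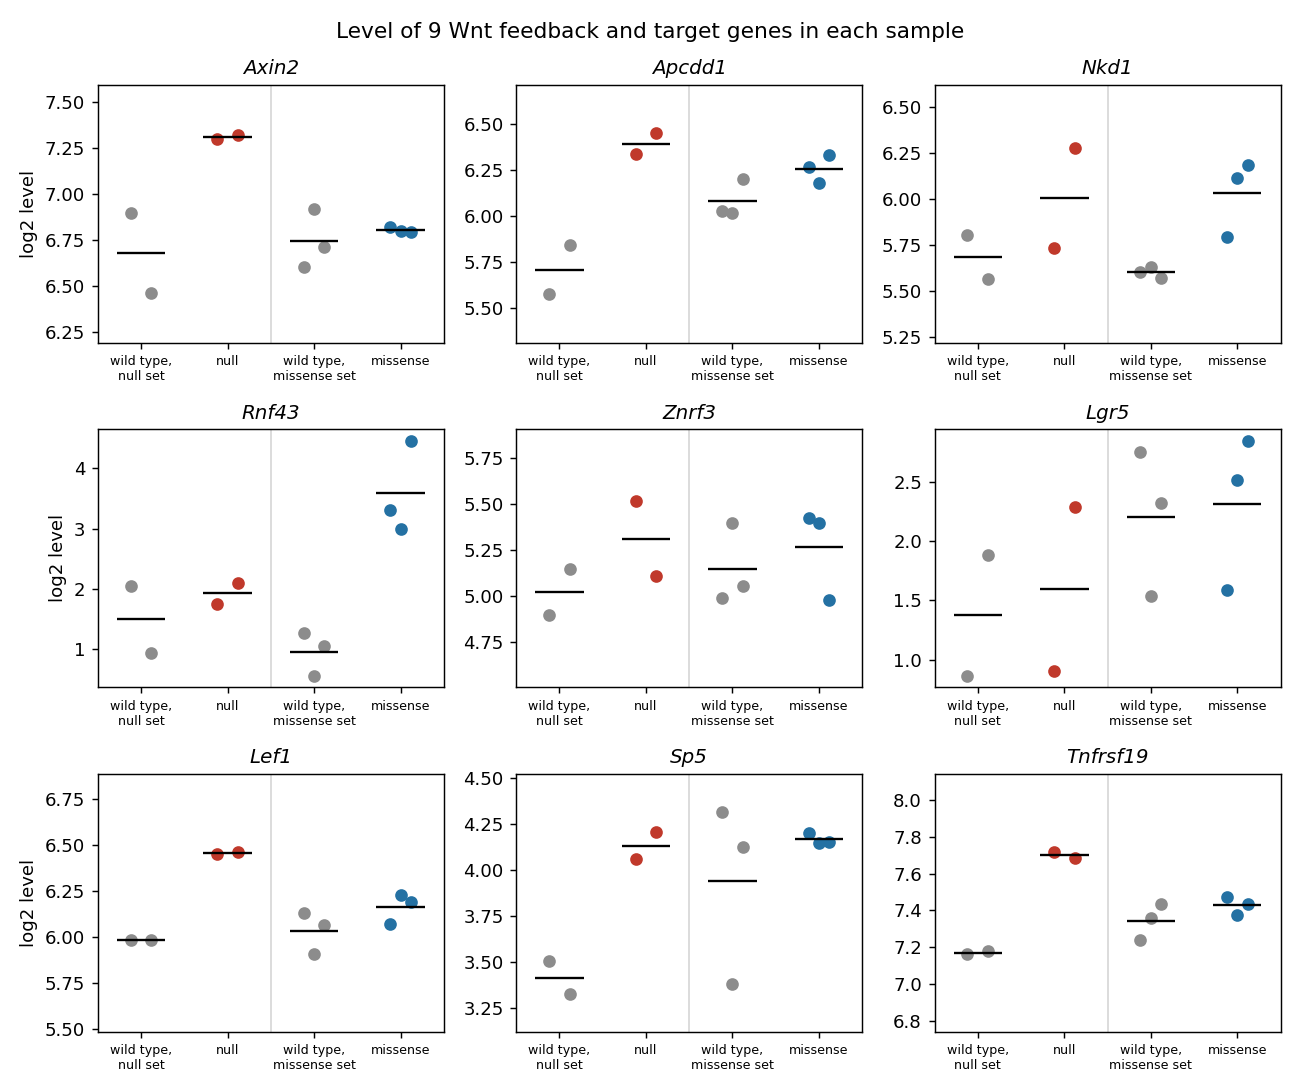
Log2 level (deposited scale, vertical axis, a separate range for each gene) of the 9 genes in each of the 10 samples; points are samples and horizontal lines are group means. The null points of Axin2, Apcdd1, Lef1, Sp5 and Tnfrsf19 sit above both wild types of their set, and the missense points of Rnf43 and Nkd1 sit above all 3 of theirs.

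Among the intracellular brakes, Axin2 is the inducible scaffold of the complex that destroys beta-catenin. Its log2 level was 6.90 and 6.46 in the null set's wild types and 7.30 and 7.32 in the null samples. It was 6.60, 6.92 and 6.71 in the missense set's wild types and 6.82, 6.80 and 6.79 in the missense samples. The null samples were thus the 2 highest of the 10, and the missense samples lay inside the range of their wild types. The null change was 0.63 on the log2 scale (SE 0.14), or 1.55-fold, and did not pass (limma, adjusted p = 0.165). It was 0.41 without the second wild type of the null set and 0.85 without the first. The missense change was 0.06 with a 95% confidence interval of -0.20 to 0.32.

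Nkd1 encodes a Dishevelled-binding inhibitor. Wild types of the null set had a log2 level of 5.81 and 5.57 and null samples of 5.74 and 6.28, so these groups overlapped. The missense samples, at 5.80, 6.12 and 6.19, did not overlap with their wild types at 5.60, 5.63 and 5.58. The missense change was 0.43 (SE 0.15), or 1.35-fold (limma, adjusted p = 0.884), against a null change of 0.32 (SE 0.19; limma, adjusted p = 0.721). The null change of Nkd1 rested largely on null sample 2, without which it was 0.05.

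At the cell surface, Apcdd1 is a membrane-bound inhibitor that binds Wnt and its co-receptor. Its log2 level was 5.57 and 5.84 in the null set's wild types and 6.34 and 6.45 in the null samples. It was 6.03, 6.02 and 6.20 in the missense set's wild types and 6.26, 6.18 and 6.33 in the missense samples. Both null samples stood above all other samples, and the lowest missense value fell just under the highest wild type of that set. The null change was 0.69 (SE 0.13), or 1.61-fold (limma, adjusted p = 0.0888). In missense samples the change was 0.18 (SE 0.10; limma, adjusted p = 0.902).

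Rnf43 and Znrf3 encode related ubiquitin ligases that clear Frizzled from the membrane. The log2 level of Rnf43 was 1.26, 0.56 and 1.06 in the missense set's wild types and 3.30, 2.995 and 4.45 in the missense samples. On the linear scale, where the genes of a sample sum to between 1000450 and 1000890, this was 1.99 ± 0.468 (SD, n = 3) in wild type and 13.2 ± 7.52 (SD, n = 3) in missense samples. The 3 missense samples were the highest of the 10, with missense 3 well above the others. The change was 2.62 (SE 0.43; 95% confidence interval 1.67 to 3.57), the fifth smallest p of all genes, with limma and an adjusted p = 0.249. Without missense 3 the change was 2.19 (limma, adjusted p = 0.746). In the null set Rnf43 was 2.05 and 0.94 in wild type and 1.76 and 2.09 in null samples, which overlap.

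The deposited values of Rnf43 were low: its mean stood at percentile 21.0 of all genes, on a scale from which gene length may or may not have been removed. The table gives no read counts, so how many reads lie behind these values is unknown. The next genes on either side of Rnf43 in the RefSeq order that had a row, Hsf5, Mtmr4, Sept4 and Supt4a, were looked up after the Rnf43 values were seen. Their missense changes were -0.35, -0.07, 0.14 and -0.12, with limma and adjusted p from 0.942 to 0.964. A noncoding transcript annotated within Rnf43 on the same strand, 1110028F11Rik, had no row of its own, and reads from it could not be told apart from those of Rnf43 here.

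Znrf3 showed no such separation. Wild types of the null set had a log2 level of 4.90 and 5.15 and null samples of 5.52 and 5.11. The missense set gave 4.99, 5.40 and 5.05 in wild types and 5.43, 5.40 and 4.98 in missense samples. Mutant and wild-type values interleaved in both sets. The change was 0.29 (SE 0.21) in the null set and 0.12 (SE 0.17) in the missense set, with limma and adjusted p of 0.788 and 0.960.

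Lgr5 encodes a receptor for R-spondins, secreted proteins that hold RNF43 and ZNRF3 back. Its log2 level was 0.87 and 1.88 in wild type and 0.91 and 2.29 in null samples. It was 2.75, 1.53 and 2.32 in the missense set's wild types and 1.59, 2.51 and 2.84 in the missense samples. Samples of 1 group differed by more than any 2 group means of a set, and the 95% confidence interval of the null change, -1.12 to 1.57, is too wide to place it on either side of 0. The missense change was 0.11 (SE 0.50; limma, adjusted p = 0.982).

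In the nucleus, Lef1 is one of the TCF/LEF factors that carry beta-catenin to DNA and is itself a target. Its log2 level was 5.98 and 5.99 in the null set's wild types and 6.45 and 6.46 in the null samples. The missense set gave 6.13, 5.91 and 6.07 in wild type and 6.07, 6.23 and 6.19 in missense samples. The null samples agreed closely and stood above the other 8 samples. The null change was 0.47 (SE 0.11), or 1.39-fold (limma, adjusted p = 0.190). In missense samples the change was 0.13 (SE 0.09; limma, adjusted p = 0.919).

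Sp5 encodes a zinc-finger factor induced directly by beta-catenin. Its log2 level was 3.50 and 3.33 in the null set's wild types and 4.06 and 4.20 in the null samples. The wild types of the missense set were at 4.32, 3.38 and 4.12 and the missense samples at 4.20, 4.15 and 4.15. The null samples did not overlap with their own wild types, but 2 of the 3 wild types of the missense set lay within or above the null range. The null change was 0.72 (SE 0.27), or 1.64-fold (limma, adjusted p = 0.495). The missense change was 0.23 (SE 0.22; limma, adjusted p = 0.932).

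Tnfrsf19, also called Troy, encodes a TNF-receptor family member transcribed in response to Wnt. Wild types of the null set had a log2 level of 7.16 and 7.18 and null samples of 7.72 and 7.68. The missense set gave 7.24, 7.36 and 7.43 in wild type and 7.47, 7.38 and 7.44 in missense samples. Both null samples were above all other samples. The null change was 0.53 (SE 0.09), or 1.45-fold, with the smallest adjusted p of the 9 genes in that comparison (limma, adjusted p = 0.0665). That in missense samples was 0.08 (SE 0.08; limma, adjusted p = 0.929).

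**Figure D2:**
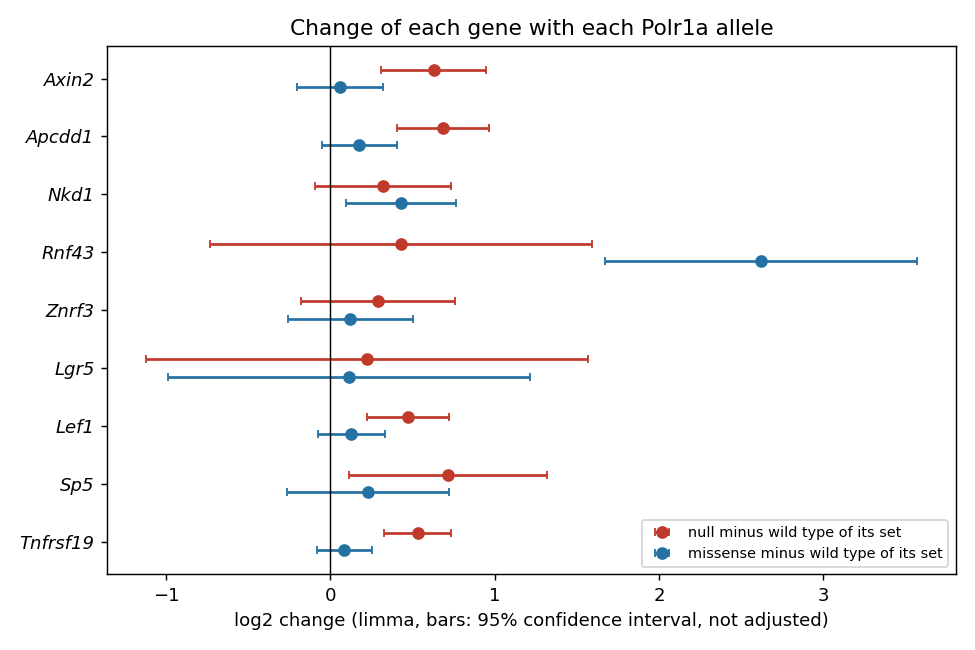
Log2 change of each gene (horizontal axis) in null and missense samples against wild type of the same set; bars are 95% confidence intervals from limma, not adjusted over genes. The null intervals of Axin2, Apcdd1, Lef1, Sp5 and Tnfrsf19 lie above 0, and the missense intervals of Rnf43 and Nkd1 do.

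TCF/LEF factors recognise a short core motif, so the promoters of the members were searched for CTTTGAT or CTTTGAA on either strand, forms that share the letters CTTTGA. RefSeq promoter windows on GRCm38.p6, from 250 bases before to 50 bases after an annotated start, were at hand for 6 members: Axin2, Lef1, Nkd1, Rnf43, Sp5 and Tnfrsf19. Of their 11 windows, 2 held a match, 1 at Sp5 and 1 at an alternative start of Tnfrsf19. Among all windows 2842 of 32851 did, or 8.651%. Both windows are shown because they hold a match. Axin2 and Lef1, which like these 2 genes did not overlap between null and wild type, had none. Each is the 250 bases before the start, 5′ to 3′ on the gene's strand, with the motif in capitals, at chr2:70474673-70474922 (plus strand) for Sp5 and chr14:61037988-61038237 (minus strand) for Tnfrsf19.
Sp5: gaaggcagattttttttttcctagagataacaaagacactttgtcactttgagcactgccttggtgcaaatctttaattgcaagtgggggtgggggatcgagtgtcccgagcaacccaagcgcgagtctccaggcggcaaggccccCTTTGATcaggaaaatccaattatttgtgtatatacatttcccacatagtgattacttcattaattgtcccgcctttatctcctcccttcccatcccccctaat
Tnfrsf19: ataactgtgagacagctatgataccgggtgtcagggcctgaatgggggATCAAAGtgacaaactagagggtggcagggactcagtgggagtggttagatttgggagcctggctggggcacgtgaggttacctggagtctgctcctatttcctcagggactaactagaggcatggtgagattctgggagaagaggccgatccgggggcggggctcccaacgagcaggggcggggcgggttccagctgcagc

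The match at Sp5 begins 104 bases before the start and reads CTTTGAT on the gene's strand. That at Tnfrsf19 begins 202 bases before the start and reads ATCAAAG, the same motif on the opposite strand. Axin2, Lef1, Nkd1 and Rnf43 had no match in these windows, which says only that these letters are not there. A match is a stretch of letters, and no binding was measured.

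Taken as a list, the 9 genes all had a fitted null change above 0, as did 8085 of the 14796 genes. Their median was 0.47 on the log2 scale against 0.03 over all genes. At an adjusted p under 0.05, limma called 0 of the 9, where 24 of the 14796 genes were called (0.162%). At an unadjusted p under 0.05, 5 of the 9 were higher, against 5.04% of all genes. The 5 genes whose null samples both exceeded both wild types compare with 22.9% of all genes, since 2 against 2 samples separate easily. Because the list was chosen with earlier results of these data known, such shares describe it and do not test it.

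In the missense set all 9 fitted changes were again above 0, as were those of 7992 of the 14796 genes. Most of the 9 were small: the median was 0.13 against 0.02 over all genes. Limma called 0 of the 9 at an adjusted p under 0.05, where 3 genes were called in all (0.0203%). At an unadjusted p under 0.05, 2 of the 9 were higher, Rnf43 and Nkd1, against 3.2% of all genes. The same 2 did not overlap between the groups, against 6.02% of all genes. Leaving out missense 2 or missense 3 left 1 of them past the unadjusted threshold.

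**Figure D3:**
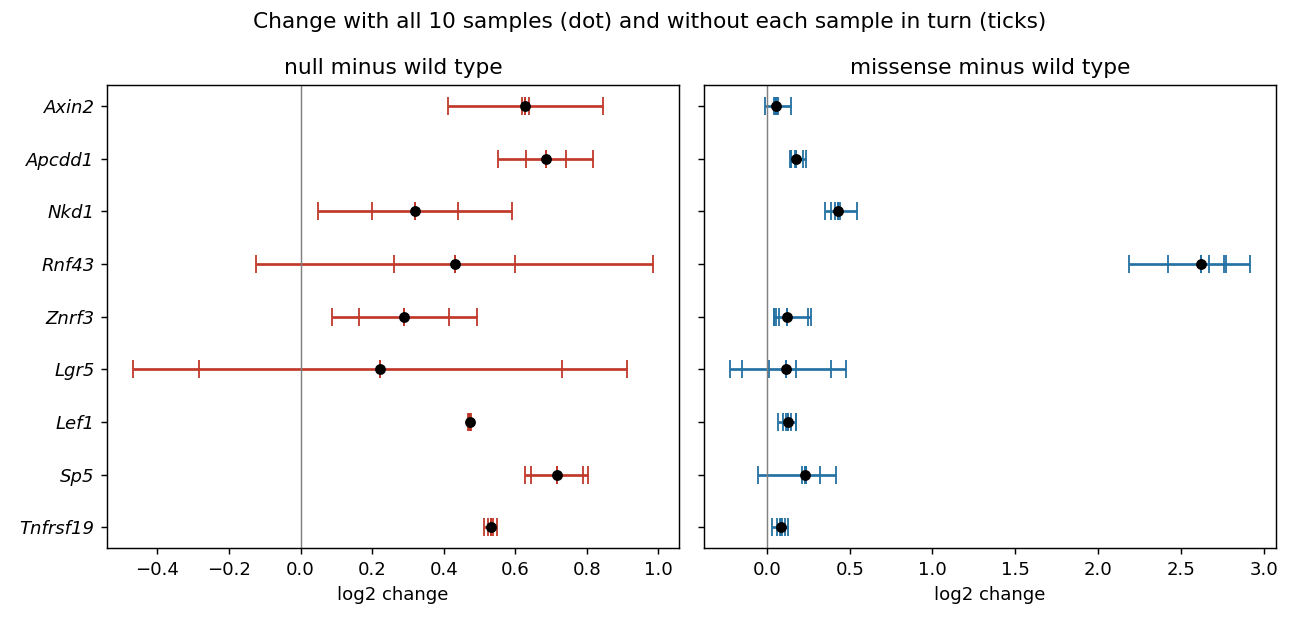
Log2 change of each gene (horizontal axis; the panels have different ranges) with all 10 samples (dot) and with each sample left out in turn (ticks, joined by a line). Lef1 and Tnfrsf19 hardly move in the null set, Axin2 spans 0.41 to 0.85, and Rnf43 and Lgr5 cross 0; in the missense set Rnf43 stays at 2.19 or above.

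The missense change minus the null change was tested as the difference between the alleles, which includes whatever else separates the 2 sets. At an unadjusted p under 0.05, 4 members had the smaller change in the missense set, against 2.22% of all genes. They were Axin2, at -0.57 (SE 0.19), Apcdd1, at -0.51 (SE 0.16), Tnfrsf19, at -0.45 (SE 0.12), and Lef1, at -0.34 (SE 0.15). Rnf43 had the larger change there, by 2.19 (SE 0.68), and was the only member past that threshold in this direction, against 1.91% of all genes. None passed after adjustment (limma, the smallest adjusted p being 0.807 for Tnfrsf19), and 2 genes did in all (0.0135%). The wild types of the 2 sets enter this difference. For Apcdd1 the mean log2 level was 5.71 in wild type and 6.39 in null samples. In the missense set it was 6.08 in wild type and 6.26 in missense samples.

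With the 2 alleles weighted equally, 7 members were higher at an unadjusted p under 0.05, against 6.7% of all genes, Znrf3 and Lgr5 being the exceptions. The smallest adjusted p were those of Apcdd1, with a mean change of 0.43 (limma, adjusted p = 0.067), and Tnfrsf19, with 0.31 (limma, adjusted p = 0.071). Rnf43 was at 1.53 (limma, adjusted p = 0.123), Lef1 at 0.30 (limma, adjusted p = 0.160) and Axin2 at 0.34 (limma, adjusted p = 0.199). Limma called 0 of the 9, where 40 genes were called in all (0.27%).

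The wild types of the 2 sets also differed in places. Apcdd1 and Tnfrsf19 were higher in all 3 wild types of the missense set than in both of the null set, against 13.7% of all genes that did so. The difference was 0.37 for Apcdd1 (SE 0.12; limma, adjusted p = 0.510) and 0.17 for Tnfrsf19 (SE 0.09; limma, adjusted p = 0.700). Apcdd1 alone of the 9 was higher at an unadjusted p under 0.05, against 4.94% of all genes, and limma called 0 of the 9, where 14 genes were called (0.0946%). Each allele was measured in 1 set, so the allele and whatever else separates the sets cannot be told apart.

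Across the 10 samples, after subtracting each set's mean from each gene, Apcdd1 and Tnfrsf19 varied most alike, with Pearson r = 0.94. Lef1 followed with Apcdd1 at 0.88 and with Sp5 at 0.87, and Axin2 with Tnfrsf19 at 0.85. Rnf43 was most like Nkd1, at 0.77, and Znrf3 and Lgr5 ran against each other, at -0.49. These values describe samples that share their genotype groups, so any genes with a like difference between groups score high.

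By the same measure, 10717 genes that are not members and lie at or above percentile 25 of level were compared with Axin2. The 5 most alike were Hmha1 (r = 0.95, Spearman rho = 0.92), Fzd10 (0.94, rho = 0.92), Wls (0.93, rho = 0.79), Tenm3 (0.93, rho = 0.85) and Ccdc91 (0.92, rho = 0.88). Fzd10 encodes a Wnt receptor and Wls the carrier that brings Wnt to the cell surface. Their null changes were 0.95 and 0.91 and their missense changes -0.12 and 0.06. The genes most like the mean of the 9, in which the widely varying Rnf43 weighs heavily, were Edn3 (r = 0.99), Angptl2 (0.98), Wipi1 (0.97), Hs1bp3 (0.97) and Wwc2 (0.96).

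The rest of the pathway was read from 8 lists holding 108 other genes, of which 99 had a row. These lists too were chosen with earlier results of these data known, so their shares are descriptions. In the null set 27 of the 99 were higher, and 8 lower, with an unadjusted p under 0.05, against 5.04% and 3.28% of all genes, and 1 passed after adjustment. Among missense samples 7 were higher and 3 lower, against 3.2% and 2.33%, and 0 passed with limma after adjustment. The median change was 0.17 in the null set and 0.05 in the missense set.

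Among 18 Wnt ligands, 8 were higher and 1 was lower in the null set (unadjusted p under 0.05), with a median change of 0.78. Wnt8b, a ligand of the hem and hippocampal field, had a log2 level of 5.42 and 5.61 in wild type and 6.51 and 6.67 in null samples. It rose by 1.08 (SE 0.14; limma, adjusted p = 0.022). The call was lost in 6 of 19 alternatives, while the change stayed between 0.98 and 1.17. Among the 6 were the fits without any 1 of the 4 samples of the null set. Another was the null set fitted alone (limma, adjusted p = 0.292). Missense samples had Wnt8b 0.63 higher (SE 0.12; limma, adjusted p = 0.546), and over both alleles it rose by 0.85 (SE 0.09; limma, adjusted p = 0.0053), a call kept in 17 of 17 alternatives.

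Wnt3 was 0.94 higher in null samples (SE 0.20; limma, adjusted p = 0.132) and -0.13 from wild type in missense samples. Wnt7a, a ligand of cortical progenitors, went the other way, at -0.73 in null and -0.52 in missense samples. Over both alleles it fell by 0.62 (limma, adjusted p = 0.049), a call lost in 13 of 17 alternatives. Of the 2 genes of Wnt secretion, Wls was at 0.91 (SE 0.20; limma, adjusted p = 0.154) in null samples, or 0.60 without the second wild type. Porcn, which adds the ligands' lipid, was at -0.42, or -0.66 and -0.17 without null 1 and null 2.

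R-spondins amplify Wnt by removing RNF43 and ZNRF3. Of 5 measured R-spondins and receptors, 3 were higher in null and 2 in missense samples at an unadjusted p under 0.05. Rspo3 was at 0.83 in null (SE 0.14; limma, adjusted p = 0.0597) and 0.30 in missense samples, and rose by 0.56 over both alleles (limma, adjusted p = 0.046), a call lost in 11 of 17 alternatives. Rspo1 was at 0.84 and 0.28. Rspo2 was at 2.18 (SE 0.60) in null samples, or 1.12 without the second wild type of the null set, and at 1.94 (SE 0.49) in missense samples. Without missense 1 the missense values of Rspo1 and Rspo3 were 0.10 and 0.18.

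Of 16 Wnt receptors and co-receptors, 4 were higher and 2 lower in null samples at that threshold, with a median of 0.24. Fzd10 was at 0.95 (SE 0.27), or 0.60 without the second wild type, while Fzd8 and Fzd5, Frizzled receptors of the anterior forebrain, were at -1.08 (SE 0.22) and -1.32 (SE 0.35). Fzd8 was at -0.40 in missense samples, or -0.24 without missense 1. Ror1, a receptor for noncanonical Wnt, had the smallest p of the list in missense samples, at 0.80 (SE 0.31; limma, adjusted p = 0.884). It was 0.52 without missense 3 and 0.47 without the second wild type of that set.

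Of 13 secreted antagonists, 5 were higher in null and 3 in missense samples at that threshold, with 1 and 0 lower. Dkk2, which binds the LRP co-receptors, was at 1.11 in null (SE 0.24; limma, adjusted p = 0.132) and 0.59 in missense samples (SE 0.19). Wif1 and Frzb, which bind Wnt itself, were at 0.93 and 0.73 in null samples, Frzb at 0.44 without null 2.

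Of 15 genes of the intracellular machinery 1 was higher and 2 were lower in null samples, with a median of -0.04. Apc2 was at -0.48 (SE 0.13) and Gsk3a at -0.27 (SE 0.09), both parts of the destruction machinery. Nkd2, the relative of Nkd1, was at 0.73 (SE 0.25), or 0.35 without null 2 and 1.12 without null 1. Of 13 nuclear effectors 2 were higher, the TCF factors Tcf7 at 0.74 (SE 0.25) and Tcf7l2 at 1.33 (SE 0.44), with a median of -0.05. None of the 13 passed an unadjusted p of 0.05 in missense samples.

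A further 17 genes known as Wnt targets in one tissue or another had 9 fitted null changes above 0 and 8 below. In null samples 3 were higher and 2 lower, with a median of 0.17, and in missense samples 0 passed the unadjusted threshold in either direction. Msx1 and Msx2, homeobox genes of the dorsal midline that also respond to Bmp, were at 0.96 (SE 0.24) and 1.04 (SE 0.30), Msx1 at 0.63 without null 2. Jun was at -0.44 (SE 0.10; limma, adjusted p = 0.158).

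**Figure D4:**
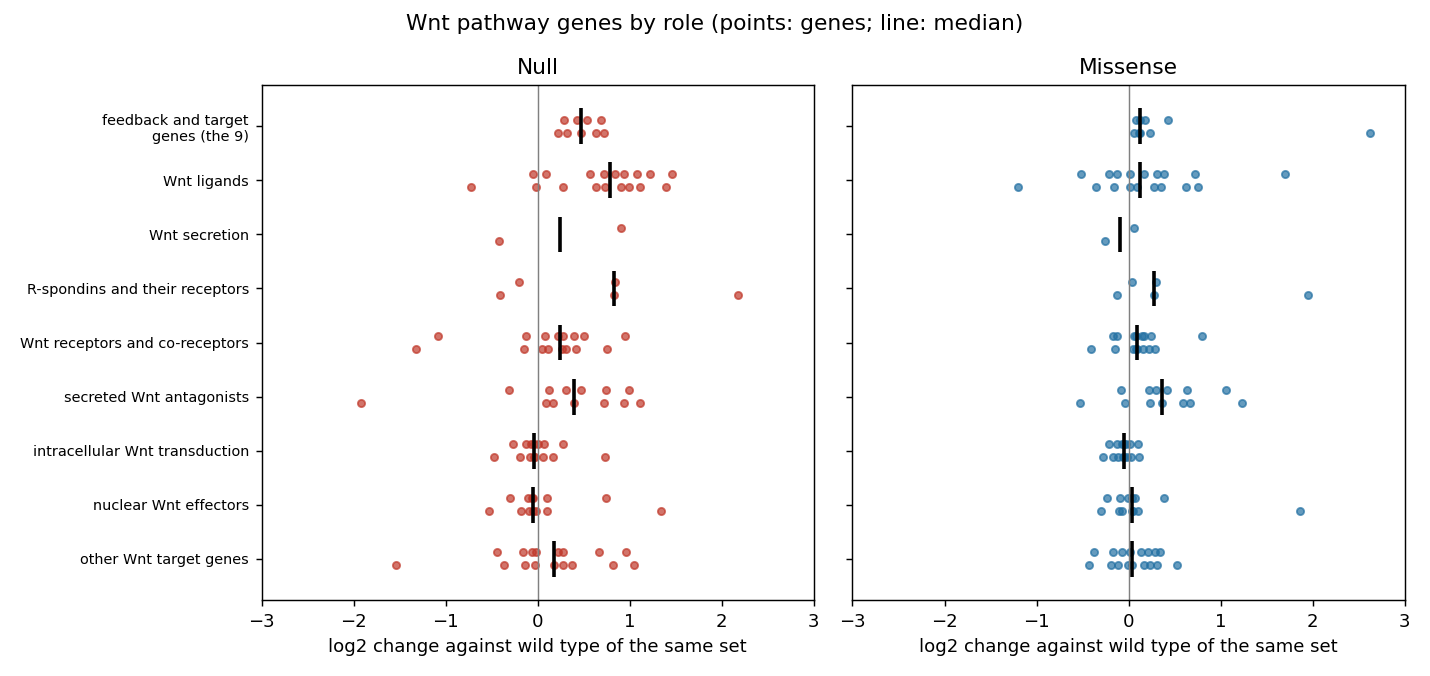
Log2 change against wild type of the same set (horizontal axis) for the 9 genes and for 8 lists of other Wnt pathway genes; points are genes and vertical lines are list medians. In null samples the medians of ligands (0.78) and of R-spondins and their receptors (0.83) lie to the right of 0, and those of the intracellular (-0.04) and nuclear (-0.05) lists lie at 0.

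Markers of several cell types differed between groups as well. Summed linear levels of 15 cortical hem markers, most of which are also on the pathway lists, were 336 to 391 in wild type and 588 to 696 in null samples. They were 391.7 to 423 in the missense set's wild types and 511 to 513 in its missense samples, so they did not overlap in either set. At an unadjusted p under 0.05, 12 of the 15 were higher in null and 6 in missense samples, against 5.04% and 3.2% of all genes. These counts largely repeat genes already counted in the pathway lists. Markers of diencephalon and midbrain summed to 403 to 487 against 749 to 861 in the null set and overlapped in the missense set, at 414 to 673 and 421 to 646. Those of ventral telencephalon were lower, at 1213 to 1407 against 552.5 to 592 in the null set and 1084 to 1201 against 919 to 976 in the missense set.

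Among cells from outside the neural tissue, the 12 markers of microglia and macrophages summed to 63.0 to 70.2 against 134 to 139 in the null set and to 83.4 to 98.2 against 114 to 136 in the missense set. Meningeal, mesenchymal and neural crest markers were at 2267 to 2624 against 3298 to 4184 and, overlapping, at 2416 to 3705 against 3002 to 3891. Surface and olfactory epithelium markers were at 80.2 to 87.3 against 115 to 145 in the null set and, overlapping, at 72.4 to 150.0 against 120 to 227 in the missense set. The 227 belonged to missense 3, the sample with the highest Rnf43. Missense 1 and missense 2 were at 121 and 120, below wild type 3 of that set at 150.0. Missense 3 also had the highest meningeal, endothelial, choroid plexus and microglia sums of its set. A link of any of these sums to Rnf43 was not tested. Endothelial markers were at 286 to 289 against 319 to 398 and, overlapping, at 316 to 345 against 301 to 368. Erythroid markers overlapped in both sets, at 4692 to 7463 against 6235 to 7344 and 6352 to 7276 against 5744 to 7336.

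Within the neural tissue, neuronal markers were lower without overlap in both sets, at 3577 to 4158 against 3033 to 3235 and 4259 to 4447 against 3516 to 4223. Radial glia markers were at 3546 to 3882 against 3412 to 3518 in the null set. They overlapped in the missense set, at 3282 to 3661 against 3175 to 3811. Choroid plexus markers were at 154 to 174 against 233 to 262 in the null set and, overlapping, at 240 to 273 against 231 to 328 in the missense set. What part these cells had in the values of the 9 genes was not tested. Lhx2, a transcription factor of the embryonic cortex and a marker of the labelled tissue, had a log2 level of 8.74 to 8.88 in wild type and 8.82 to 9.01 in null samples, and of 8.74 to 8.84 and 8.53 to 8.91 in the missense set. No marker was at the lowest listed value throughout a group except 1 of microglia and macrophages in the null set's wild types.

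**Figure D5:**
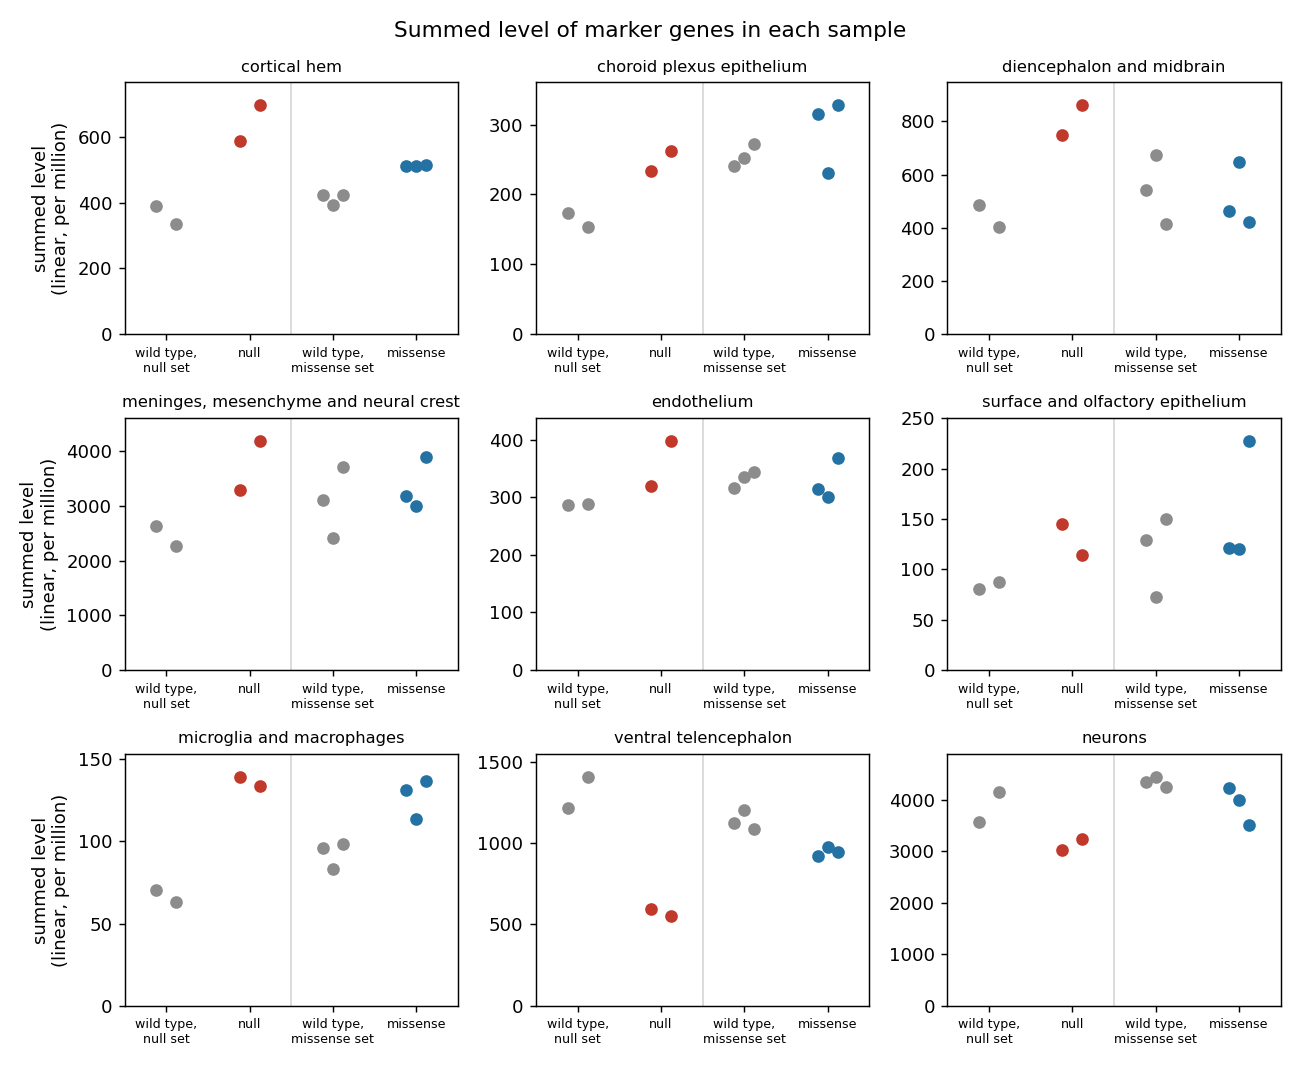
Summed linear level (vertical axis, linear, from 0) of 9 lists of marker genes in each of the 10 samples; points are samples. Cortical hem and microglia sums are higher, and ventral telencephalon sums lower, in mutant than in wild-type samples of both sets, while diencephalon and midbrain sums are separate in the null set alone.

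The targeted gene itself was lower in the null samples: Polr1a had a log2 level of 5.38 and 5.38 in wild type and 4.99 and 4.82 in null samples, a change of -0.48 (SE 0.20; limma, adjusted p = 0.563). In the missense set it was 5.62, 5.51 and 5.64 in wild type and 5.09, 5.66 and 5.79 in missense samples. A missense change need not alter the level of its mRNA, so these values do not check that label. Samples correlated with each other at r = 0.938 to 0.964 across genes, which are not independent replicates. This range does not show whether the lowest values belonged to 1 sample.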

How the data were processed

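The deposited table held 1 value per gene and sample for telencephalon RNA-seq. The authors filtered and normalized it, per the file's name; labels and header say no more. The deposited values are on a log2 scale: 2 to the power of the deposited value sums to 1000450 to 1000890 per sample over 14796 named genes (1 row without a name was left out). The aligner, the counting and any division by gene length are not stated in those sources, so depth is unknown, and percentiles of level, used for filters and for choosing markers, may mix length with abundance. The build is GRCm39 per the submitters' processing notes. Each gene was fitted with limma 3.58.1 in R 4.3.3 (4 groups, variance trend, Benjamini-Hochberg over all genes, threshold 0.05). If an offset was added before the log, which is not stated, a fold change on this scale understates that of low genes. The labels do not say that samples came from separate litters, so p-values reflect only how far these samples spread, which may be technical. Alternatives changed scaling, offset, filter, variance model, set term and samples. Named genes were the 9 members, up to 3 genes per pathway list by null p and 1 by missense p, the 5 most like Axin2 and the 5 most like the members' mean, and up to 3 markers per list by level. Members and lists were chosen with earlier results of these data known. Fits were tested on simulated data. Polr1a, the neighbours of Rnf43 and 1110028F11Rik were named outside the rule.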

Additional observations from a re-analysis of the deposited data

How the results depend on the processing

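No member passed an adjusted p of 0.05 (limma) in any alternative. Of the members' alternative values, 767 kept their direction and 24 reversed it. Other models reversed Lgr5 alone: Lgr5 was at -0.27 in null samples without the term for the title number and at -0.12 in missense samples with sample weights. The rest came from leaving out 1 sample. Over those fits the null change ran from -0.47 to 0.91 for Lgr5 and from -0.12 to 0.98 for Rnf43. The missense change ran from -0.012 to 0.145 for Axin2, from -0.052 to 0.416 for Sp5 and from -0.22 to 0.48 for Lgr5. The difference between alleles ran from -0.80 to 0.58 for Lgr5, from -0.16 to 0.38 for Nkd1 and from -0.371 to 0.033 for Znrf3. The mean of both changes ran from -0.18 to 0.51 for Lgr5. Between the wild types, Axin2 ran from -0.15 to 0.28, Nkd1 from -0.203 to 0.039, Rnf43 from -1.09 to 0.021 and Znrf3 from -0.0014 to 0.25.

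The number of genes called over the whole table depended on the model. In the null set it was 24, 59 without the term for the title number, 6 without the variance trend, 0 with the null set fitted alone and 2 to 23 with 1 sample left out. In the missense set it was 3, and 2 to 10 with 1 sample left out. For the difference between alleles it was 2, 1 with median-centred samples, 0 without the trend and 1 to 10 with 1 sample left out. For the mean of both it was 40, 13 without the trend and 10 to 29 with 1 sample left out. Between the wild types it was 14, 8 with genes above percentile 25 of level and 7 to 21 with 1 sample left out. Members higher at an unadjusted p under 0.05 in the missense set numbered 2, 1 with that filter, which leaves out Rnf43 and Lgr5, and 1 to 2 with 1 sample left out. A group reduced to 1 sample took its spread from the others. The alternatives for pathway genes that are not members were chosen after seeing the data. No paired analysis was possible because the labels do not say what the samples' numbers stand for and no number is shared by samples of different groups within a set.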
